A study of Mus musculus with 9 samples.

Results

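A set of 10 genes widely read as marks of fibroblasts was followed here in mouse embryonic fibroblasts (MEFs) of 3 genotypes. They were chosen by name, as the listed rows of Thy1, Cd34, Ly6a, Ly6c1, Pdpn, Fap, Dpp4, Vim, S100a4 and Twist2, and all 10 were found among the 24341 genes listed. The series holds 9 poly(A) RNA-Seq samples, 3 each from wild-type (WT), Atm-/- and Sirt6-/- MEFs of the C57BL/6 strain, all grown in DMEM with fetal bovine serum. Each sample had between 32187040 and 33837949 counted reads. The question was how this set of markers differed between genotypes.

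The groups carry limits that bear on every value below. Atm is the kinase that starts the response to DNA double-strand breaks, and Sirt6 is a chromatin-bound deacylase. The labels list p53-null and Atm-/-P53-/- mice among the sources of MEFs without tying p53 status to a sample, and the methods of the study name both immortalized lines received from other laboratories and primary MEFs, without saying which were sequenced. Genotype, line of origin, immortalization and p53 status therefore cannot be told apart. Nothing in the labels says that the 3 samples of a genotype were separate cultures or embryos, so p-values measure the spread between these samples only, which may be technical. Sirt6 RNA was 0.162 ± 0.04 counts per 1000000 counts (CPM; SD, n = 3) in Sirt6-/- samples against 14.4 ± 1.39 in WT. Atm RNA was higher in the Atm-/- samples, at 104 ± 4.04 CPM against 50.6 ± 1.90 in WT, and gene-level counts do not show whether the targeted exons were present. Trp53 RNA was 25.9 ± 2.29 CPM in Atm-/-, 220.0 ± 9.22 in WT and 278 ± 2.52 in Sirt6-/- MEFs. Between samples of one genotype, the WT 2 library stood further from the other WT libraries (chi-square per gene 16.4 and 15.1) than any other pair did (5.24 to 6.88).

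Fibroblasts are mesenchymal cells that make the collagen-rich matrix of connective tissue, and no single gene marks all of them. The markers fall into several roles. Thy1, Ly6a and Ly6c1 encode small surface proteins held in the membrane by a glycosylphosphatidylinositol (GPI) anchor. Cd34 and Pdpn encode heavily glycosylated surface mucins, and Fap and Dpp4 encode related membrane proteases that cleave after proline. Vim encodes vimentin, the intermediate filament protein of mesenchymal cells, S100a4 encodes a calcium-binding protein of the cytoplasm, and Twist2 encodes a basic helix-loop-helix transcription factor of the dermal and skeletal mesenchyme. In bulk RNA, fewer cells that carry a marker and less marker RNA per cell cannot be told apart.

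The genes lie apart in the genome, except for 2 pairs (GENCODE M21 on GRCm38, the build of the mm10 name that the submitters' processing notes give). Thy1 spans chr9:44043384-44048579, Cd34 chr1:194938819-194961279, Pdpn chr4:143267431-143299564, Vim chr2:13573927-13582826, S100a4 chr3:90603771-90606045 and Twist2 chr1:91801461-91848028. Fap (chr2:62500943-62574075) and Dpp4 (chr2:62330073-62412231) are neighbours on the minus strand, 88712 bases apart with the glucagon gene Gcg between them. Ly6a (chr15:74994877-74998031) and Ly6c1 (chr15:75044018-75048830) sit 45987 bases apart in the Ly6 cluster, whose members are close copies of each other, so reads may be split among them and their counts are uncertain in that respect. Cd34, Dpp4 and Twist2 each overlap an annotated antisense gene (Gm16897, Gm13561 and Gm29100), and because no strand-marking step is described, reads of both strands are counted together. S100a4 overlaps Gm42674 on its own strand, so reads shared by these genes are uncertain as well.

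Promoter entries of RefSeq (GRCm38.p6) existed for 7 of the 10 genes, and not for Thy1, Fap and Ly6a. The 250 bases before the start site are printed for 5 of them, chosen because their RNA differed most clearly between genotypes: Cd34, Ly6c1 and Twist2, which were higher in both knockout genotypes than in WT, Pdpn, which was lower in both, and S100a4, which was higher in one. Capitals mark matches, on either strand, to the TATA box (TATAAA), the CCAAT box (CCAAT), the GC box (GGGCGG), the E-box bound by Twist-type factors (CANNTG) and the gamma-activated site of interferon-responsive promoters (TTCNNNGAA). All run 5′ to 3′ on the strand of the gene.
Cd34, chr1:194938571-194938820, plus strand: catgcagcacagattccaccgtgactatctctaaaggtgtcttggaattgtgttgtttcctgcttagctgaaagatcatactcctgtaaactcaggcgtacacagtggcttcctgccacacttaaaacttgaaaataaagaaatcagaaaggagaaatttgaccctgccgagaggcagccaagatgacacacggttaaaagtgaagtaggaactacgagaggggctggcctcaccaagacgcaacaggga
Ly6c1, chr15:75048838-75049087, minus strand: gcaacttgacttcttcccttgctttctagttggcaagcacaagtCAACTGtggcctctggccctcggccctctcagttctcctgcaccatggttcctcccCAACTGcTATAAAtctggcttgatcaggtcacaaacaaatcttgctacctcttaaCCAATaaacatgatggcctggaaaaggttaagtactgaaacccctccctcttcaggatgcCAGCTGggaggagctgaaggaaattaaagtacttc
Twist2, chr1:91801211-91801460, plus strand: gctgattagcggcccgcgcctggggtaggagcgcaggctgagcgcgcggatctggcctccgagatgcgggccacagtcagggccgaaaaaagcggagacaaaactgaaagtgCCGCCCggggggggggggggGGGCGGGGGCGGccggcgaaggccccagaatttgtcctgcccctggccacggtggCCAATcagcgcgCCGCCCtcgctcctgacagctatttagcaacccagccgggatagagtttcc
Pdpn, chr4:143299565-143299814, minus strand: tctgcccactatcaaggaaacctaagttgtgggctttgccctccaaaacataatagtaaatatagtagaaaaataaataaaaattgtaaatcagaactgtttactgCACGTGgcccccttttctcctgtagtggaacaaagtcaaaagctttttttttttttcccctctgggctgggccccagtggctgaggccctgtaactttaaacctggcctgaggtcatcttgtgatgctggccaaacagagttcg
S100a4, chr3:90603520-90603769, plus strand: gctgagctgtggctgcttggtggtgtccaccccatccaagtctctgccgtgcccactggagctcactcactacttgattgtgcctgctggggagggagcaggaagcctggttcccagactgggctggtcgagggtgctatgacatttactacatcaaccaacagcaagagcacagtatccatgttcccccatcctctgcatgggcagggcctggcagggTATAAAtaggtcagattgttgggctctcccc
The Cd34 window held none of the 5 motifs. The printed Ly6c1 window held 3 E-boxes, 1 TATA box ending 137 bases before the start and 1 CCAAT box, and no 2 of these overlapped. Ly6c1 had another promoter entry, chr15:75048664-75048913, which is not printed. That entry held 2 E-boxes but no TATA, CCAAT or GC box, and 83 of its bases lay in an exon of Ly6c1. The Twist2 window was the richest in G and C, at 68.8% against a median of 52.4% over 32851 promoter windows, with 23 CpG dinucleotides against a median of 6; it held 4 GC boxes, 2 of them side by side, and 1 CCAAT box, and it lies wholly in an exon of the antisense gene Gm29100. The Pdpn window held a single E-box, 138 bases before the start. The S100a4 window held a TATA box ending 25 bases before the start. Among all windows of this length, an E-box was present in 66.2%, a CCAAT box in 33.8%, a GC box in 32.7%, a TATA box in 12.4% and a gamma-activated site in 7.02%, and none of the 5 windows held the last. These matches are a description of the letters and not of binding.

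Against WT, most of the surface markers differed in the knockout MEFs, some upward and some downward. Cd34, Ly6a, Ly6c1 and Twist2 were higher in both Atm-/- and Sirt6-/- samples, by 3.18- to 121-fold, and Pdpn was lower in both, by 4.24- and 10.2-fold. Thy1 and S100a4 moved in opposite directions in the 2 knockouts. Vimentin RNA was about as low in one knockout as in the other, 1.46- and 1.47-fold under WT. Fap and Dpp4 were at or near 0 in most samples.

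**Figure D1:**
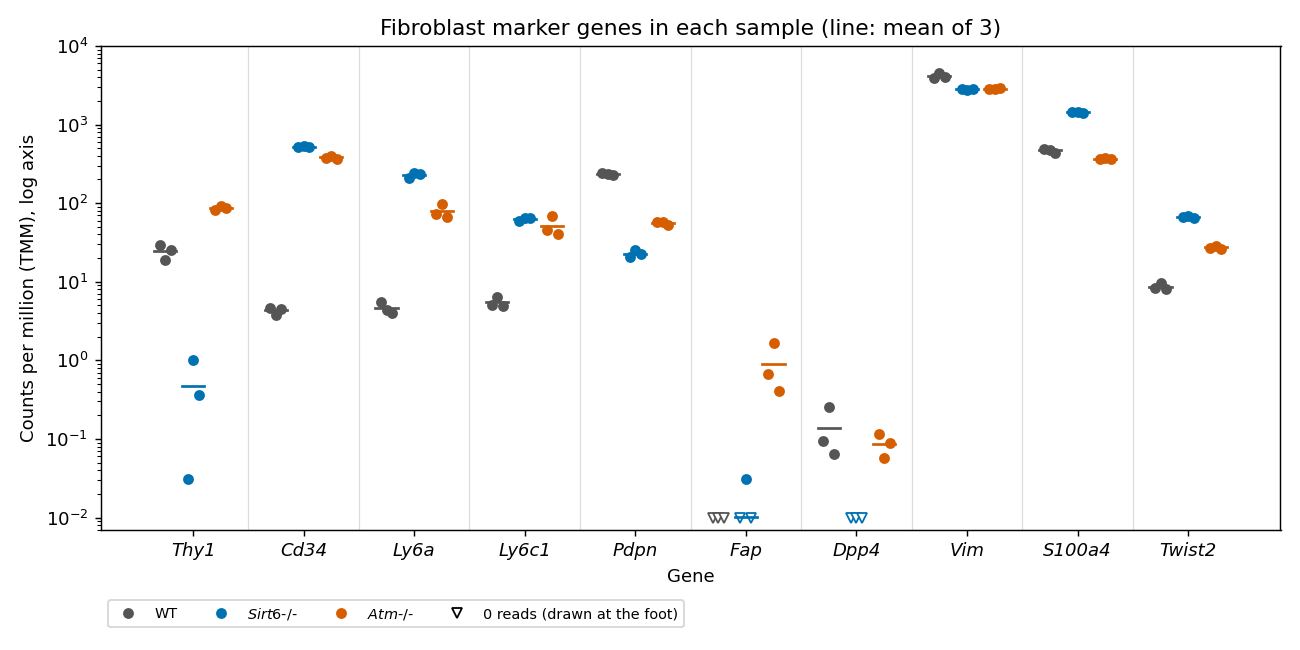
Level of each of the 10 genes in each of the 9 samples, in CPM on a log axis, with points for samples, a line for the mean of 3 and open triangles at the foot for samples with 0 reads. Cd34, Ly6a, Ly6c1 and Twist2 sit higher in both knockout genotypes than in WT, Pdpn sits lower, and Thy1 falls to between 0.0306 and 1.01 CPM in Sirt6-/- samples alone.

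Tests compared each pair of genotypes with edgeR's quasi-likelihood test, and a gene was called at a Benjamini-Hochberg adjusted p under 0.05 over all genes tested. Between Atm-/- and WT samples 68.4% of the 13283 genes tested were called (34.7% higher, 33.6% lower), and 9 of the 10 markers passed the filter on low counts and were called, 6 higher and 3 lower. Between Sirt6-/- and WT samples 76.6% of 13206 genes were called (39.2% higher, 37.4% lower), and 8 markers passed the filter and were called, 5 higher and 3 lower. Between Atm-/- and Sirt6-/- samples 75.8% of 13460 genes were called (38% higher, 37.8% lower), and of 9 markers that passed, 3 were higher in Atm-/-, 5 were lower and Vim was not called. Fap passed only through the Atm-/- samples, Thy1 passed in the comparison of Sirt6-/- with WT only through WT and in that of Atm-/- with Sirt6-/- only through Atm-/-, and Dpp4 never passed, so these counts are not support for a difference of the markers from other genes. Groups without overlap in CPM were found for 9 of 9 markers tested in Atm-/- against WT, 8 of 8 in Sirt6-/- against WT and 8 of 9 in Atm-/- against Sirt6-/-, where 72.8%, 79.1% and 78.1% of all genes tested did not overlap. With so many genes called, being called says little about a marker, and the sizes below carry the description. Scaling by library totals instead of TMM moved the median log2 fold change of all genes from 0.02 to 0.18 for Atm-/- against WT, with 6156 genes then called higher and 3326 lower in place of 4611 and 4469, and no call or direction of a marker against WT changed.

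Thy1, the GPI-anchored glycoprotein used to sort fibroblasts and bone marrow stromal cells, had a different level in each genotype. It was at 29.7, 18.8 and 25.04 CPM in the WT samples and at 83.0, 91.5 and 87.7 CPM in the Atm-/- samples. The Sirt6-/- samples held 1, 33 and 12 Thy1 reads, which is 0.0306, 1.01 and 0.359 CPM. No 2 genotypes overlapped. Against WT, Thy1 rose 3.55-fold in the Atm-/- samples (1.83 ± 0.11 SE on the log2 scale, adjusted p = 2.79e-09). It was 51.7-fold lower in Sirt6-/- than in WT (-5.69 ± 0.37). Atm-/- against Sirt6-/- samples gave 7.54 ± 0.20, a difference exceeded in size by 1.12% of genes tested. In both comparisons with Sirt6-/-, Thy1 was tested only because the other genotype was high, so its p is not given there as support. The Sirt6-/- samples varied widely among themselves, with a coefficient of variation of 107%, whereas leaving aside Fap and Dpp4 no other marker exceeded 28.4% in any genotype. Without the Sirt6-/- 2 library the log2 fold change against WT was -6.92, and without the Sirt6-/- 1 library it was -5.15.

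The genes whose pattern over the 9 samples was closest to that of Thy1 were Nell2, which encodes a secreted protein of neural tissue, and Cd55, which encodes a GPI-anchored inhibitor of complement. The measure was the root mean square difference of log2(CPM + 1) profiles, each centred on its own mean, and it was 0.374 for Nell2 and 0.611 for Cd55 against a spread of 2.51 for Thy1 itself. Adding 1 CPM shrinks fold changes at levels near or under 1 CPM, so genes matched there can differ in fold change. Cd55 had 331, 155 and 393 reads in WT, 1019, 966 and 899 in Atm-/- and 0, 16 and 0 in Sirt6-/- samples, so that its reads in Sirt6-/- came from the Sirt6-/- 2 library, which also held the most Thy1 reads. Nell2 had 4, 5 and 7 reads in the Sirt6-/- samples, without such an excess.

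Partners of Thy1 and enzymes of GPI anchors were read as a list, since Thy1, Ly6a and Ly6c1 all need the anchor. Of 11 tested against WT, 3 were higher and 5 lower in Atm-/- and 5 were higher and 5 lower in Sirt6-/- samples. Their median log2 fold changes were -0.27 and 0.04. Among all genes tested, 34.7% were higher and 33.6% lower in Atm-/-, and 39.2% and 37.4% in Sirt6-/- samples. Piga, a subunit of the enzyme that begins anchor synthesis, rose in Atm-/- samples (1.09 ± 0.09, adjusted p = 1.2e-07), and Pgap1, which trims the lipid of the finished anchor, fell in Sirt6-/- samples (-1.63 ± 0.09, adjusted p = 3.6e-10). Plcb1, which is counted in the list but is not an enzyme of the GPI anchor, encodes a phospholipase C. It was at 1.11 ± 0.03 CPM in WT, 16.7 ± 0.37 in Sirt6-/- and 14.2 ± 2.09 in Atm-/- samples. Among integrin chains that can bind Thy-1, Itgb3 fell in Atm-/- (-1.38 ± 0.10) and Itgb5 rose in Sirt6-/- (1.40 ± 0.05). Itgb3 stood at 38.1 ± 2.1 CPM in WT, 28.5 ± 1.5 in Sirt6-/- and 14.7 ± 2.1 in Atm-/- samples.

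Ly6a, which encodes the stem cell antigen Sca-1, was low in WT and abundant in both knockouts. It stood at 5.49, 4.43 and 3.99 CPM in WT, at 207, 245 and 238 CPM in Sirt6-/- and at 72.7, 97.1 and 66.6 CPM in Atm-/- samples. The 3 groups did not overlap. The log2 fold change was 5.64 ± 0.10 for Sirt6-/- against WT (49.9-fold, adjusted p = 1.09e-15) and 4.08 ± 0.15 for Atm-/- against WT (16.9-fold, adjusted p = 6.56e-12), and Atm-/- samples were 2.91-fold under Sirt6-/- samples (-1.54 ± 0.09, adjusted p = 2.47e-12). Closest in pattern were Dchs1, which encodes a large cadherin (root mean square difference 0.185 against a spread of 2.26), and Prrx2, a homeobox factor of limb and facial mesenchyme (0.280). Dchs1 stood at 0.106, 42.3 and 11.5 CPM in WT, Sirt6-/- and Atm-/- MEFs. Its fold change against WT was thus larger than that of Ly6a, and its match depends on the added 1 CPM.

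Ly6c1, the neighbouring gene that encodes the surface antigen Ly-6C, showed a like order with smaller steps. It stood at 5.11, 6.34 and 4.98 CPM in WT, at 58.6, 64.5 and 65.0 CPM in Sirt6-/- and at 45.8, 67.9 and 40.4 CPM in Atm-/- samples. Both knockouts lay wholly above WT, while the knockouts overlapped each other because the Atm-/- 2 sample was higher than every Sirt6-/- sample. The log2 fold changes against WT were 3.53 ± 0.10 in Sirt6-/- (adjusted p = 1.72e-13) and 3.22 ± 0.18 in Atm-/- (adjusted p = 6.38e-10). Atm-/- against Sirt6-/- samples gave -0.29 ± 0.12 (95% interval -0.52 to -0.06, adjusted p = 0.0319), and this call rested on the fit. It was lost with library totals (adjusted p = 0.0826), with all 9 samples in one fit (0.0531), with DESeq2 (0.311) and without any one of 4 libraries: Sirt6-/- 2 (0.0992), Sirt6-/- 3 (0.0846), Atm-/- 1 (0.156) and Atm-/- 3 (-0.14, 0.240), while without Atm-/- 2 the value was -0.54. Closest in pattern were 1810011O10Rik (root mean square difference 0.181 against a spread of 1.501) and Plcb1 (0.184).

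Other members of the Ly6/uPAR family, a family of small disulfide-bonded surface proteins, did not move as a block. Of 18 listed besides these 2, 17 were found, and only 7 had enough reads for the test of Atm-/- against WT and 6 for each of the others. Of the 7 tested for Atm-/- against WT, 5 were higher and 2 lower, where 34.7% of all genes tested were higher and 33.6% lower. Of the 6 tested for Sirt6-/- against WT, 3 were higher and 2 lower, where the shares were 39.2% and 37.4%. Lynx1, which encodes a regulator of nicotinic receptors, rose in both, from 0.656 ± 0.32 CPM in WT to 10.1 ± 0.53 in Atm-/- and 20.8 ± 1.12 in Sirt6-/- samples. Ly6f, in the same cluster as Ly6c1, fell in both, from 20.8 ± 5.08 CPM to 0.281 ± 0.12 and 0.0404 ± 0.04. Cd59a, the GPI-anchored inhibitor of the complement pore, fell in Sirt6-/- (-5.13 ± 0.36), and Lypd6 rose in Atm-/- (6.92 ± 0.37). Cd59a was low in both knockouts, at 5.51 ± 0.94 CPM in WT, 0.153 ± 0.11 in Sirt6-/- and 0.794 ± 0.14 in Atm-/- samples. Against WT, Ly6f in both knockouts, Cd59a in Sirt6-/- and Lypd6 in Atm-/- passed the filter on low counts only through the higher genotype. The counts of this list are therefore not support for a difference from other genes. The closest copy beside Ly6c1, Ly6c2, was at 0.455 CPM in WT, 6.00 in Sirt6-/- and 4.996 in Atm-/- samples, with the same order of genotypes as Ly6c1; it is named here after its values were seen, as the gene whose reads may be shared.

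Cd34, the sialomucin of haematopoietic stem cells, endothelium and many tissue fibroblasts, had the largest step against WT among the markers with reads in every sample. It stood at 4.70, 3.82 and 4.47 CPM in WT, at 516, 528 and 522 CPM in Sirt6-/- and at 378, 399 and 369 CPM in Atm-/- samples. Both knockouts lay far above WT, and the 3 groups did not overlap. The log2 fold change was 6.92 ± 0.07 for Sirt6-/- (121-fold, adjusted p = 4.44e-18) and 6.46 ± 0.07 for Atm-/- (87.8-fold, adjusted p = 5.32e-17), sizes exceeded by 2.08% and 2.03% of genes tested. Atm-/- samples were 1.37-fold under Sirt6-/- samples (-0.45 ± 0.04, adjusted p = 7.56e-10). Nes, which encodes the intermediate filament protein nestin, and Alcam, which encodes a surface adhesion molecule of stromal cells, were closest in pattern, with root mean square differences of 0.530 and 0.611 against a spread of 3.02. Nes stood at 3.66, 196 and 171 CPM and Alcam at 1.32, 94.3 and 66.5 CPM in WT, Sirt6-/- and Atm-/- MEFs.

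The relatives of CD34 went other ways. Podxl, which encodes podocalyxin, fell from 436 ± 80 CPM in WT to 0.509 ± 0.18 in Sirt6-/- (log2 fold change -9.73 ± 0.19, adjusted p = 2.8e-15) and to 111 ± 2.6 in Atm-/- samples (-1.98 ± 0.10, adjusted p = 1.9e-10). Podxl2, which encodes endoglycan, rose in both, from 0.529 ± 0.05 to 8.84 ± 1.16 and 2.49 ± 0.72 CPM. Within this family of sialomucins the WT samples were highest in Podxl and lowest in Cd34 and Podxl2.

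Pdpn, which encodes podoplanin, a mucin of lymphatic endothelium, lymph node stroma and activated fibroblasts, was lower in both knockouts. It stood at 245, 232 and 229 CPM in WT, at 20.4, 25.4 and 22.6 CPM in Sirt6-/- and at 56.8, 57.0 and 53.2 CPM in Atm-/- samples. The groups were in the order WT, Atm-/-, Sirt6-/- with no overlap. The log2 fold change was -3.36 ± 0.07 for Sirt6-/- (10.2-fold lower, adjusted p = 7.81e-15) and -2.08 ± 0.05 for Atm-/- (4.24-fold lower, adjusted p = 1.06e-13), and Atm-/- samples were above Sirt6-/- samples by 1.29 ± 0.08 (adjusted p = 2.15e-12). Ezr, which encodes ezrin, the linker that ties the podoplanin tail to actin, fell with it, from 1545 ± 294 CPM in WT to 141 ± 6.5 in Sirt6-/- and 291 ± 8.5 in Atm-/- samples. Closest in pattern were Sh3bp5, an adaptor of the kinase Jnk (0.086 against a spread of 1.37), and Gata6, a zinc finger factor of heart and endoderm (0.095).

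The 2 proline-cleaving proteases were nearly silent. Fap, which encodes fibroblast activation protein, had 0 reads in all 3 WT samples, 0, 1 and 0 in Sirt6-/- and 23, 58 and 14 in Atm-/- samples, at 0.912 ± 0.66 CPM there. Reads were thus found in every Atm-/- sample and in 1 of the other 6. Against the floor of 3 counts over the group, Fap was at least 28.9-fold higher in Atm-/- than in WT, and the ratio of Atm-/- to Sirt6-/- was 90.6 with a 95% counting interval of 15.9 to 3615. The Atm-/- 2 library held 58 of the 95 reads, and without it the bound was 17.0 and the ratio 53.3. Fap was called in both comparisons, but it was tested only because the Atm-/- samples were high, so its p is not given as support.

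Dpp4, which encodes CD26, a surface peptidase of fibroblast progenitors of the dermis and fascia, had 3, 8 and 2 reads in WT, 4, 2 and 3 in Atm-/- and 0 in each Sirt6-/- sample. The WT and Atm-/- samples overlapped. It passed no filter and was not tested. WT samples were at least 4.53-fold and Atm-/- samples at least 2.86-fold above Sirt6-/- samples at the floor of 3 counts over the group, bounds that cover counting error only. The WT 2 library held 8 of the 13 WT reads, and without it the WT bound was 2.61-fold. Soluble prolyl peptidases from the list read beside these genes were expressed in every sample, and none of the changes named here reached 2-fold. Dpp7, a lysosomal peptidase, fell in Atm-/- (-0.62 ± 0.09, adjusted p = 3.4e-05) and in Sirt6-/- (-0.90 ± 0.08, adjusted p = 9.1e-08), and Prep, the cytosolic prolyl endopeptidase, fell in Sirt6-/- (-0.43 ± 0.05, adjusted p = 1.1e-06).

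Vim stayed among the most abundant transcripts in every genotype. It stood at 3959.8, 4472 and 3998 CPM in WT, at 2818, 2778 and 2797 CPM in Sirt6-/- and at 2832, 2825 and 2884 CPM in Atm-/- samples. Both knockouts lay below WT without overlap, while they lay within a few percent of each other. The log2 fold change was -0.56 ± 0.05 for Sirt6-/- (adjusted p = 1.05e-07) and -0.55 ± 0.05 for Atm-/- (adjusted p = 1.11e-07), smaller than the changes of 48.8% and 39.2% of genes tested. Atm-/- against Sirt6-/- samples gave 0.03 ± 0.03 (95% interval -0.03 to 0.08, adjusted p = 0.428). With library totals that value was 0.08 and was called (adjusted p = 0.0117). Med13l, a subunit of the Mediator kinase module, and H2afx, the histone variant phosphorylated at DNA breaks, were nearest in pattern (0.053 and 0.055 against a spread of 0.264).

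Other intermediate filament genes moved both further and less far than Vim. Nes rose in Atm-/- (5.53 ± 0.09, adjusted p = 1.6e-15) and in Sirt6-/- samples (5.75 ± 0.08, adjusted p = 1.8e-16), and Prph, which encodes the neuronal filament protein peripherin, fell in both (-4.80 ± 0.32 and -4.09 ± 0.33). Lmnb1, which encodes the nuclear lamin B1, was at 232 ± 7.6 CPM in WT, 145 ± 0.96 in Atm-/- and 102 ± 2.5 in Sirt6-/- samples. Lmna, which encodes lamins A and C and is named here after its values were seen, differed less, by -0.19 in Atm-/- and 0.19 in Sirt6-/- samples. Of the tested genes of this list, 4 were higher and 3 lower in Atm-/- and likewise 4 and 3 in Sirt6-/- samples. The shares over all genes tested were 34.7% higher and 33.6% lower in Atm-/-, and 39.2% and 37.4% in Sirt6-/- samples. Prph passed the filter on low counts only through WT.

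S100a4 was the marker for which the Sirt6-/- samples alone stood high. It was at 490.0, 476 and 439 CPM in WT, at 1432, 1465 and 1422 CPM in Sirt6-/- and at 365, 377 and 363 CPM in Atm-/- samples. The 3 groups did not overlap, and the Atm-/- samples were the lowest. The log2 fold change was 1.63 ± 0.05 for Sirt6-/- against WT (3.10-fold, adjusted p = 3.5e-13), -0.35 ± 0.05 for Atm-/- against WT (adjusted p = 1.28e-05) and -1.97 ± 0.03 for Atm-/- against Sirt6-/- samples (adjusted p = 2.75e-21). The change in Atm-/- was smaller than that of 54.6% of genes tested. Nearest in pattern were Gstk1, a peroxisomal and mitochondrial glutathione transferase found at only 0.350, 3.13 and 0.096 CPM in WT, Sirt6-/- and Atm-/- MEFs (0.069 against a spread of 0.857), and Rnf150 (0.086). At these levels the Gstk1 match depends on the added 1 CPM, and its fold changes were larger than those of S100a4.

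The S100 relatives, most of them in the same cluster, moved in both directions. Of 10 tested against WT in Atm-/- samples, 3 were higher and 7 lower, and of 9 tested in Sirt6-/- samples, 2 were higher and 6 lower, with medians of -0.48 and -0.27, where 33.6% and 37.4% of all genes tested were lower. With library totals 6 and 5 were lower. S100a16 fell in Atm-/- (from 38.3 ± 3.6 to 3.47 ± 0.37 CPM) and in Sirt6-/- samples (to 20.1 ± 1.7 CPM), and S100a11 fell in Sirt6-/- (-0.81 ± 0.05, adjusted p = 2.4e-09). The S100 gene next to S100a4, S100a3, whose gene ends 1069 bases before it, rose in Sirt6-/- (1.27 ± 0.24, adjusted p = 0.00019), from 1.93 ± 0.34 to 4.63 ± 1.05 CPM, and also in Atm-/- samples (0.58 ± 0.24, adjusted p = 0.045), where S100a4 fell. S100a7a rose in Atm-/- (1.55 ± 0.28, adjusted p = 0.0002).

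Twist2 was low in WT and graded upward through Atm-/- to Sirt6-/- samples. It stood at 8.33, 9.53 and 8.01 CPM in WT, at 27.2, 28.9 and 26.5 CPM in Atm-/- and at 67.1, 68.4 and 65.2 CPM in Sirt6-/- samples. No groups overlapped. The log2 fold change was 2.97 ± 0.08 for Sirt6-/- (7.81-fold, adjusted p = 1.42e-13) and 1.67 ± 0.10 for Atm-/- (3.18-fold, adjusted p = 1.64e-09) against WT, and -1.28 ± 0.06 for Atm-/- against Sirt6-/- samples (adjusted p = 6.98e-14). Oaf, a secreted protein gene, and P3h2, a collagen prolyl hydroxylase gene, were nearest in pattern (0.105 and 0.129 against a spread of 1.16).

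Transcription factors of the mesenchyme and dimer partners of Twist proteins moved in both directions. Of 14 tested in Sirt6-/- against WT, 10 were higher and 4 lower (median 1.03), where 39.2% of all genes tested were higher. Of 13 tested in Atm-/- against WT, 7 were higher and 4 lower (median 0.57), where 34.7% were higher. With library totals 9 were higher in Atm-/- samples. Prrx1, a homeobox factor of limb mesenchyme, rose from 26.1 ± 1.2 CPM in WT to 322 ± 25 in Atm-/- and 728 ± 36 in Sirt6-/- samples, and its relative Prrx2 from 2.45 ± 0.39 to 33.6 ± 3.2 and 113 ± 2.2. Snai2, a zinc finger repressor of epithelial genes, took the same order, at 8.36 ± 0.76, 26.3 ± 1.3 and 53.5 ± 3.1 CPM. Zeb2, another such repressor, fell in Atm-/- (-1.31) and Sirt6-/- (-1.83), as did Id1, an inhibitor of helix-loop-helix factors (-0.51 and -1.43); these fallers are named here after their values were seen. Snai1, a close relative of Snai2, was lower in Atm-/- than in Sirt6-/- samples (-2.19 ± 0.07, adjusted p = 1e-16).

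**Figure D2:**
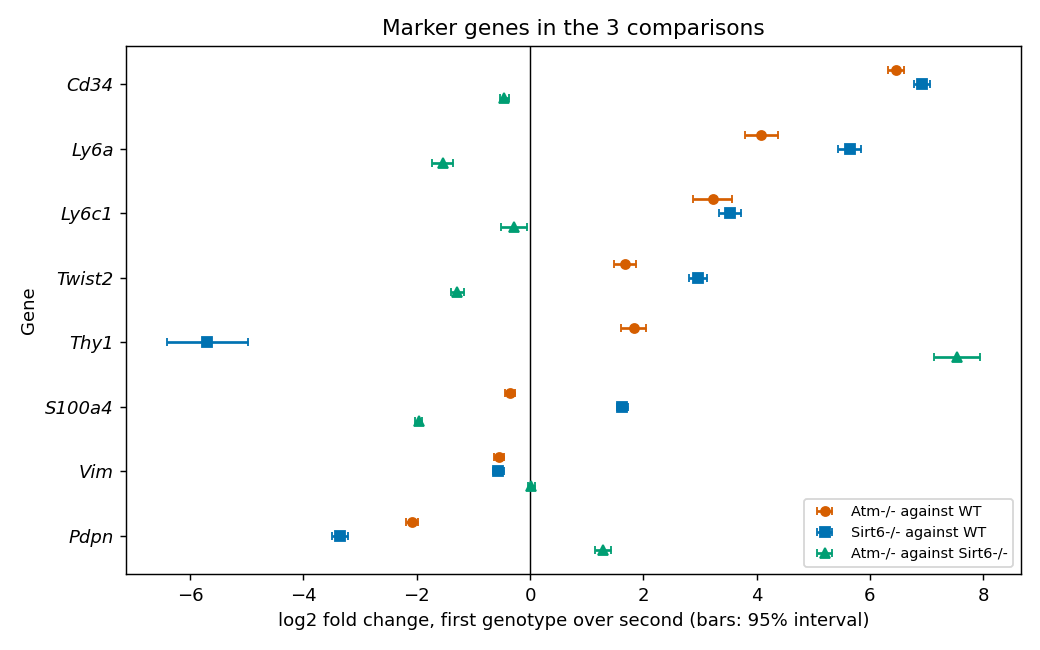
log2 fold change of 8 markers in the 3 comparisons, with points for the estimate and bars for the 95% interval. Fap and Dpp4 are left out because a genotype had no reads. Cd34, Ly6a, Ly6c1 and Twist2 lie right of 0 in both comparisons with WT, Vim and Pdpn lie left of 0 in both, and Thy1 and S100a4 fall on opposite sides.

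Set against each other per kilobase of listed length, the markers changed order between genotypes. In WT the order was Vim (2259 CPM per kilobase), S100a4 (938), Pdpn (131), Thy1 (14.1), Twist2 (6.57), Ly6c1 (6.45), Ly6a (4.80), Cd34 (1.76), Dpp4 (0.038) and Fap (0). In Sirt6-/- it was S100a4 (2885), Vim (1525), Ly6a (238), Cd34 (212), Ly6c1 (73.8), Twist2 (51.0), Pdpn (12.7), Thy1 (0.270), Fap (0.0038) and Dpp4 (0). In Atm-/- it was Vim (1552), S100a4 (739), Cd34 (155), Ly6a (81.6), Ly6c1 (60.5), Thy1 (50.4), Pdpn (30.9), Twist2 (21.0), Fap (0.337) and Dpp4 (0.024). Neighbours whose samples overlapped were Twist2 and Ly6c1 in WT, Ly6a and Cd34 and also Fap and Dpp4 in Sirt6-/-, and Ly6a and Ly6c1 and also Ly6c1 and Thy1 in Atm-/- MEFs. All other neighbours were apart in all 3 samples. S100a4 ranked 4 from the top of all genes in Sirt6-/- MEFs on this scale, and Vim ranked 6 in WT, 22 in Sirt6-/- and 18 in Atm-/-. Cd34 moved from rank 10061 of 16045 genes with a read in WT to 307 of 16317 in Sirt6-/- and 431 of 16659 in Atm-/-.

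**Figure D3:**
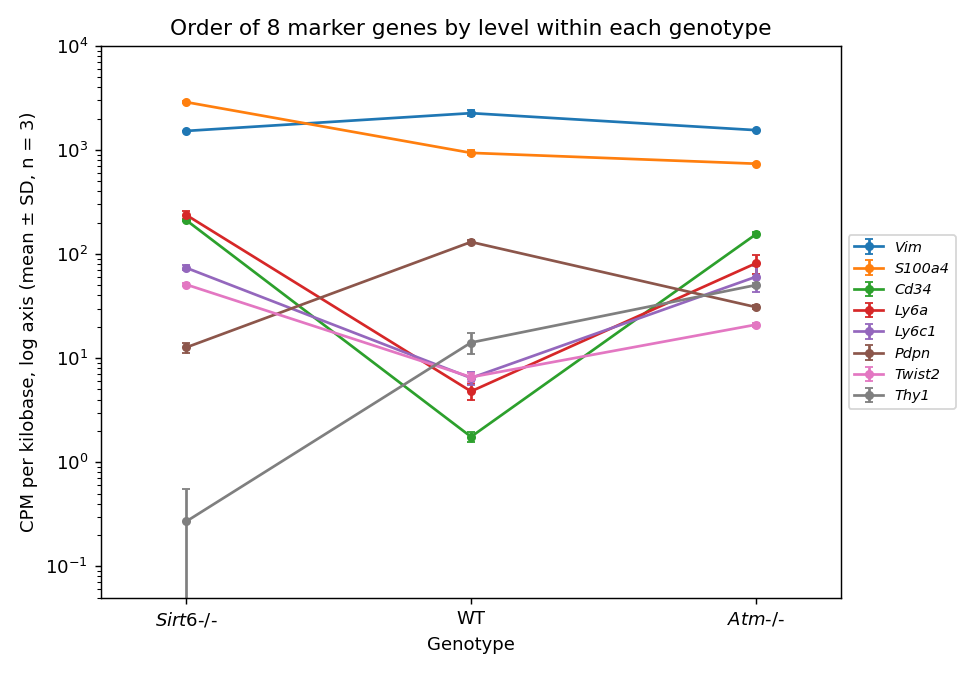
Level of 8 markers per kilobase of listed length (mean ± SD of 3 samples, log axis), with lines joining the same gene across genotypes; the lower bar of Thy1 in Sirt6-/- runs off the axis because its SD is larger than its mean. WT is drawn between the knockouts. Cd34, lowest of the 8 in WT, stands at 212 and 155 CPM per kilobase in the knockouts.

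The broader fibroblast programme was read from lists of genes beside the markers. Of 18 tested pan-fibroblast genes, 15 were lower and 2 higher in Atm-/- than in WT samples, with a median log2 fold change of -1.74, where 33.6% of all genes were lower. Col3a1, a fibrillar collagen gene, fell from 2234 ± 533 to 109 ± 8.0 CPM (-4.36 ± 0.14, adjusted p = 1.8e-12), and Col1a1 fell by 2.57 ± 0.07 on the log2 scale (adjusted p = 5.9e-13). Of the same 18 genes, 10 were higher and 7 lower in Sirt6-/- samples (median 0.28), where 39.2% and 37.4% of all genes were higher and lower. Col3a1 and Col1a1 fell there as well (-0.95 and -1.87), as did Col5a1 (-0.39). The other collagen genes of the list rose in Sirt6-/- samples: Col1a2 (0.72), Col6a1 (1.01) and Col6a2 (0.57). Of these, Col5a1, Col6a1 and Col6a2 are named here after their values were seen. Fbn1, which encodes the microfibril protein fibrillin-1, rose in Sirt6-/- (1.94 ± 0.05, adjusted p = 8.3e-14) and less in Atm-/- (0.95 ± 0.05). Fbln1 rose in both knockouts (2.70 ± 0.11 in Atm-/-, 3.09 ± 0.12 in Sirt6-/-). Fbln2, a related matrix gene, fell in Sirt6-/- (-1.92 ± 0.07, adjusted p = 2e-12) and in Atm-/- (-1.69 ± 0.07). Summed over the list, these genes took 34044 to 38068 CPM in WT, 25735 to 26291 in Sirt6-/- and 9867 to 10124 in Atm-/- samples. Every one of the 9 samples thus carried RNA of collagens and other matrix proteins, the main products of fibroblasts, while Lum, a matrix proteoglycan gene, had a mean of 0.211, 0.213 and 0 CPM.

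Markers of fibroblast subsets and of stromal cell surfaces moved in both directions. Of 15 subset markers tested in Atm-/- against WT, 8 were higher and 5 lower, and of 14 in Sirt6-/-, also 8 and 5. For these counts and those of the surface proteins below, 34.7% of all genes tested were higher and 33.6% lower in Atm-/-. In Sirt6-/- samples these shares were 39.2% and 37.4%. Crabp1, a retinoic acid carrier of dermal fibroblasts, was at 0.657 ± 0.16 CPM in WT, 174 ± 2.6 in Atm-/- and 3.56 ± 0.29 in Sirt6-/- samples. Penk, which encodes proenkephalin, was at 0.0846 ± 0.07, 27.5 ± 6.8 and 1.65 ± 0.25 CPM in the same order. Aspn, a small leucine-rich proteoglycan gene, was at 0.572 ± 0.06 CPM in WT, 195 ± 13 in Sirt6-/- and 2.63 ± 0.59 in Atm-/- samples. Dlk1, a preadipocyte surface gene, fell with Thy1 and Cd55 in Sirt6-/- (-5.47 ± 0.29). Against WT, Penk passed the filter on low counts only through the knockouts, and Dlk1 and Cd55 in Sirt6-/- only through WT. Of stromal surface proteins, 6 of 15 tested were higher and 6 lower in Atm-/-, and 7 of 14 higher and 4 lower in Sirt6-/- samples. Alcam (5.64 ± 0.11 and 6.16 ± 0.10) and Nt5e, the ecto-enzyme CD73 (3.36 ± 0.23 and 3.35 ± 0.25), rose in Atm-/- and Sirt6-/-. Vcam1, an adhesion molecule of inflamed stroma, fell in both, from 993 ± 42 CPM in WT to 104 ± 7.3 in Atm-/- and 219 ± 9.9 in Sirt6-/- samples.

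**Figure D4:**
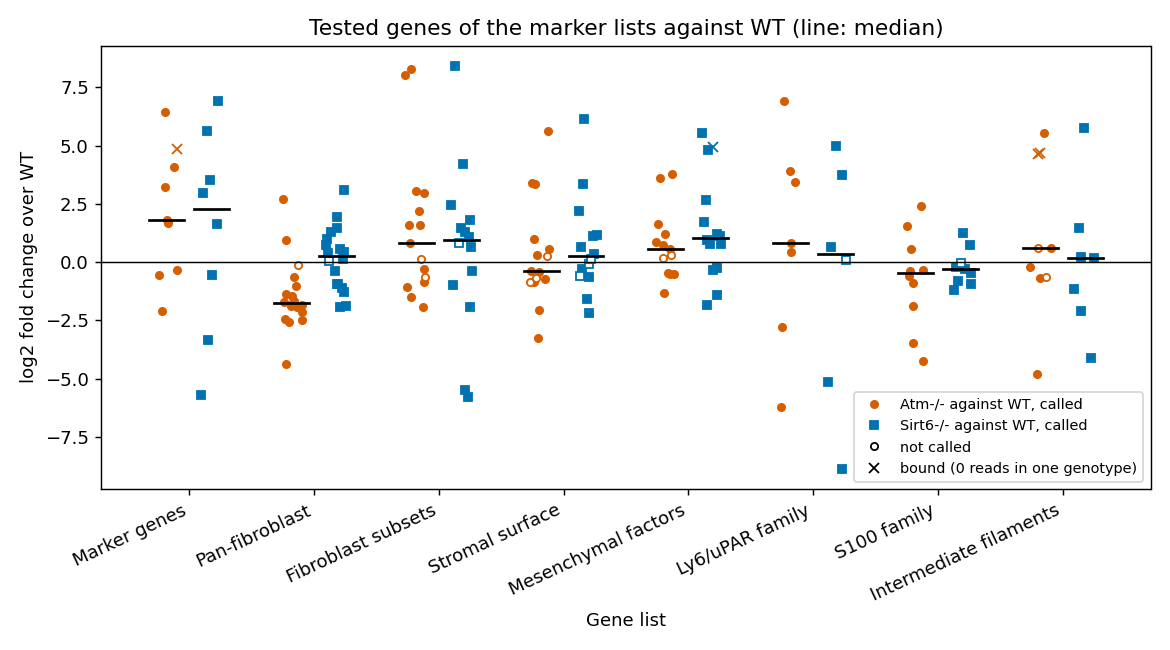
log2 fold change against WT of the tested genes in the marker set and 7 gene lists, for Atm-/- (circles) and Sirt6-/- (squares), filled where called and open where not; crosses stand for bounds of genes with 0 reads in a genotype, and black lines are medians. The pan-fibroblast list lies mostly below 0 in Atm-/- (median -1.74) and around 0 in Sirt6-/- (0.28).

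Several of these markers also occur on other cells, so the levels of other cell types' genes are given beside them. For endothelium, which expresses Cd34, Pdpn and Ly6a, the 8 listed genes summed to 3.35 to 5.13 CPM in WT, 1.11 to 1.85 in Sirt6-/- and 10.2 to 13.1 in Atm-/- samples. Only 2 of them could be tested against WT, and both were higher in Atm-/- while 1 was higher and 1 lower in Sirt6-/- samples. Tie1 had 0 reads in every sample, the means of Pecam1 and Cdh5 were at or under 0.325 CPM, and Kdr made up most of the sum in Atm-/- samples. Cd34 was at 522 CPM in Sirt6-/- and 382 CPM in Atm-/- samples. For blood cells, which express Cd34, Thy1 and Ly6 genes, the 7 listed genes found summed to 11.1 to 12.5 CPM in WT, 4.01 to 4.79 in Sirt6-/- and 3.92 to 3.93 in Atm-/- samples, with Cd3e at 0 reads and Ptprc at means of 0.142 CPM or less. Of 3 tested against WT none was higher, and 1 was lower in Atm-/- and 2 in Sirt6-/- samples.

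Epithelial genes summed to 23.7 to 28.4 CPM in WT, 18.3 to 22.9 in Sirt6-/- and 46.7 to 51.2 in Atm-/- samples, with 2 of 7 tested higher in Atm-/- and 2 of 7 lower in Sirt6-/-. Skeletal muscle genes stayed at or under 1.60 CPM, with Myog, Myf5 and Pax7 at 0, and the 1 gene tested fell in Sirt6-/- and was not called in Atm-/-. Neural and glial genes summed to 7.34 to 8.48 CPM in WT, 79.8 to 88.1 in Sirt6-/- and 92.4 to 101 in Atm-/- samples, mainly through Map2 and Tubb3, which encode proteins of neuronal microtubules. They were thus low in WT and high in both knockouts, with Atm-/- somewhat above Sirt6-/- samples. The means of Cd34, Ly6a, Ly6c1 and Twist2 were also lowest in WT, and were highest in Sirt6-/- samples. Of the neural and glial genes tested, 4 of 6 were higher and 1 lower in Atm-/-, and 2 of 3 higher and 1 lower in Sirt6-/- samples. Cartilage and bone genes summed to 66.5 to 81.6 CPM in WT, 299 to 349 in Sirt6-/- and 152 to 168 in Atm-/- samples, with 3 of 5 higher in each knockout and 2 lower in Sirt6-/-, and these sums had the same order of genotypes as the means of Cd34, Ly6a, Ly6c1 and Twist2. Smooth muscle and pericyte genes summed to 2496 to 2717 CPM in WT, 1495 to 1834 in Sirt6-/- and 916 to 1178 in Atm-/- samples, with 1 of 6 tested higher and 3 lower in Atm-/- and 2 of 7 higher and 4 lower in Sirt6-/-. Adipocyte genes summed to 136 to 213, 17.8 to 22.3 and 86.6 to 97.3 CPM in the same order, although 3 were higher and 1 lower of 4 tested in Atm-/- and of 5 tested in Sirt6-/- samples. Beside the counts of all these cell type lists, 34.7% of all genes tested were higher and 33.6% lower in Atm-/- against WT. In Sirt6-/- against WT these shares were 39.2% and 37.4%. The part of the listed cell type genes in the marker differences was not tested.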

How the data were processed

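MEF poly(A) RNA-Seq of 9 samples (3 WT, 3 Atm-/-, 3 Sirt6-/-; groups from the genotype labels) was analysed from the deposited per-gene read counts; the deposited RPKM values, which the authors scaled by gene length and depth, were read only to check the read totals. The submitters' processing notes name mm10; aligner, counter and their versions are not given in the sources used here. Each pair of genotypes was compared with edgeR 4.0.16 (R 4.3.3): genes filtered by filterByExpr, TMM scaling, quasi-likelihood test, prior count 0.125, and Benjamini-Hochberg adjustment over all genes tested; SE was the absolute log2 fold change over the square root of F. The step was tested on simulated data. Levels are CPM with TMM over 9 samples, and CPM per kilobase of the listed length for comparing genes. Depth was 32187040 to 33837949 counts, and 3 counts equal 0.0887 to 0.0932 CPM of the library totals, before TMM scaling. Bounds and intervals cover counting error only. Members and lists were chosen with earlier results of these data known. Named genes were the 10 markers, Atm, Sirt6 and Trp53. The 2 genes nearest by pattern to each marker, with a mean of at least 1 CPM, were also named. From each fibroblast-related list, the 3 largest called changes per comparison with a mean of at least 1 CPM and no overlap were taken. Lum, Ly6c2, Lmna, Zeb2, Id1, Col5a1, Col6a1 and Col6a2 were named after their values were seen. The same holds for cell-type markers at or near 0 or leading a sum. Fap and Dpp4 were too low for a pattern match. Replicate numbers did not pair the samples. Alternatives were DESeq2 1.42.0, other scalings, filters, priors and a 2-fold threshold, fits on all samples or with replicate blocks, and each library left out.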

Additional observations from a re-analysis of the deposited data

How the results depend on the processing

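Against WT, the markers tested in the main fits kept their direction and their adjusted p under 0.05 in every alternative fit that tested them. Dpp4, and Fap in Sirt6-/- against WT, were not tested in the main fits. They were not followed in the alternative fits. Requiring a 2-fold change as well left 2983 genes called for Atm-/- against WT, 3872 for Sirt6-/- against WT and 3433 for Atm-/- against Sirt6-/-, in place of 9080, 10114 and 10205; markers called lower became 1 of 3 in the first comparison and 3 of 5 in the last. With at least 10 counts in every sample, Fap and Thy1 dropped out of the last comparison and 1 marker was called higher there in place of 3. That filter also left Fap untested in Atm-/- against WT and Thy1 untested in Sirt6-/- against WT. With library totals in place of TMM, the prolyl dipeptidase list for Atm-/- against WT had 3 genes higher and 1 lower (1 and 2 with TMM), the smooth muscle and pericyte list 2 higher (1) and the cartilage and bone list 5 higher (3), and Dpp8 was no longer called (-0.03). The values for Ly6c1 and Vim between the knockouts stand in the report. The fitted log2 fold change of Fap ran from 7.15 (without Atm-/- 2) to 8.26 over the left-out libraries and was 4.004 with a prior count of 2. Thy1 in Sirt6-/- against WT ran from -6.92 to -5.15, and against Atm-/- the difference ran from 6.99 to 8.77. Blocking on replicate number, 8833, 10041 and 10157 genes were called, with 9, 8 and 8 markers, and the block changed no marker call. Same-numbered samples did not deviate together (correlations -0.0268 to 0.102 over 9 pairs, against a mean of -0.0114 over 18 pairs of different numbers). Depth limits Fap and Dpp4: where a single library holds 0 reads, a level of up to 0.0887 to 0.0932 CPM (3 counts, before TMM scaling) remains possible. Leaving out each library of the higher genotype, chosen as an alternative after seeing the data, moved the Fap and Dpp4 bounds as given in the report.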
